A study of Mus musculus with 40 samples.

Results

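The hepatic genes that build, lengthen and desaturate fatty acids were examined across the doses of the dioxin TCDD, a long-lived pollutant that activates the aryl hydrocarbon receptor (AhR), a ligand-dependent transcription factor. The set held 10 of the 55359 gene identifiers counted, chosen by name for their place in the pathway: Acly and Me1 (supply of carbon and NADPH), Acaca and Fasn (de novo synthesis), Elovl3, Elovl5 and Elovl6 (elongation), and Scd1, Fads1 and Fads2 (desaturation). All 10 passed the filter on low counts that left 15373 genes for testing. Liver RNA was sequenced from 40 male C57BL/6 mice in 8 groups of 5, each library from 1 mouse. From postnatal day 30 to 58 per the labels, each mouse was gavaged every 4 days for 28 days, 7 times in all, with sesame oil vehicle or with TCDD in that vehicle at 30, 10, 3, 1, 0.3, 0.1 or 0.03 µg/kg. The groups differed in dose alone as labelled, and the labels give no genetic modification. Mice are numbered below as replicates 1 to 5 within a group, a number that pairs no mice across groups.

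Fatty acid synthesis starts in the cytosol, where citrate exported from mitochondria is cleaved to acetyl-CoA, acetyl-CoA is carboxylated to malonyl-CoA, and fatty acid synthase joins these units into palmitate with NADPH as the reductant. Elongases of the endoplasmic reticulum add carbon pairs to palmitate and to dietary fatty acids, and desaturases introduce double bonds at fixed positions with electrons passed on by cytochrome b5. In liver, much of the pathway is switched on after feeding by the transcription factors SREBP-1c and ChREBP.

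The libraries held 15.5 to 21.0 M counts in genes, with a median of 17.5 M. Levels are given as CPM, the counts of a gene for every 1 M counts of the library after TMM scaling (trimmed mean of M-values), and ± is the SD between 5 mice. Cyp1a1, the classical AhR target, was at 1.66 ± 0.480 CPM in vehicle and 5767 ± 666 CPM at 30 µg/kg, and the hepatocyte markers Alb, Ttr, Apoa1, Apoh and Fgb were detected in every group. A gene was called when it differed by at least 1.5-fold and had an adjusted p under 0.05 (quasi-likelihood test of edgeR, Benjamini-Hochberg adjustment over all genes). The titles number the libraries in 2 runs, numbers up to 27 (19 libraries) and from 28 (21 libraries), and values within a run are given where they bear on a result. The libraries are bulk tissue, so fewer cells of a type and less RNA per cell cannot be told apart.

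In the highest dose group, 8 of the 10 genes were called, all lower than in vehicle, when 42.1% of all tested genes were called, 18.9% lower and 23.2% higher. The median log2 fold change of the 10 genes was -2.34 and that of all tested genes 0.03. At 10 µg/kg 4 of the 10 were called, against 21.8% of all genes (8.13% lower, 13.6% higher): Acly, Elovl3 and Elovl6 were lower and Elovl5 was higher. A single gene, Elovl6, was called at 1 µg/kg, where 2.78% of all genes were called, and it was the only one at 3 µg/kg, where the background was 6.75%. None was called by edgeR at 0.03, 0.1 or 0.3 µg/kg, where the background was 0.0195%, 0.0976% and 0.468%. At these doses 1, 1 and 0 of the 10 had an unadjusted p under 0.05, and DESeq2 and limma called 0 as well. The count at 10 µg/kg was 7 when only vehicle and that dose entered the fit and 2 within the first run of title numbers. With title run as a covariate it was 3, and Elovl6 was not called there (log2 fold change -0.66, adjusted p = 0.0506). The 21.8% belongs to the fit over all 40 libraries and is not the background of these other fits. All doses share 1 estimate of spread in that fit. With vehicle and 30 µg/kg fitted alone, the same 8 genes were called at larger adjusted p, up to 0.0136 (Scd1, edgeR).

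**Figure D1:**
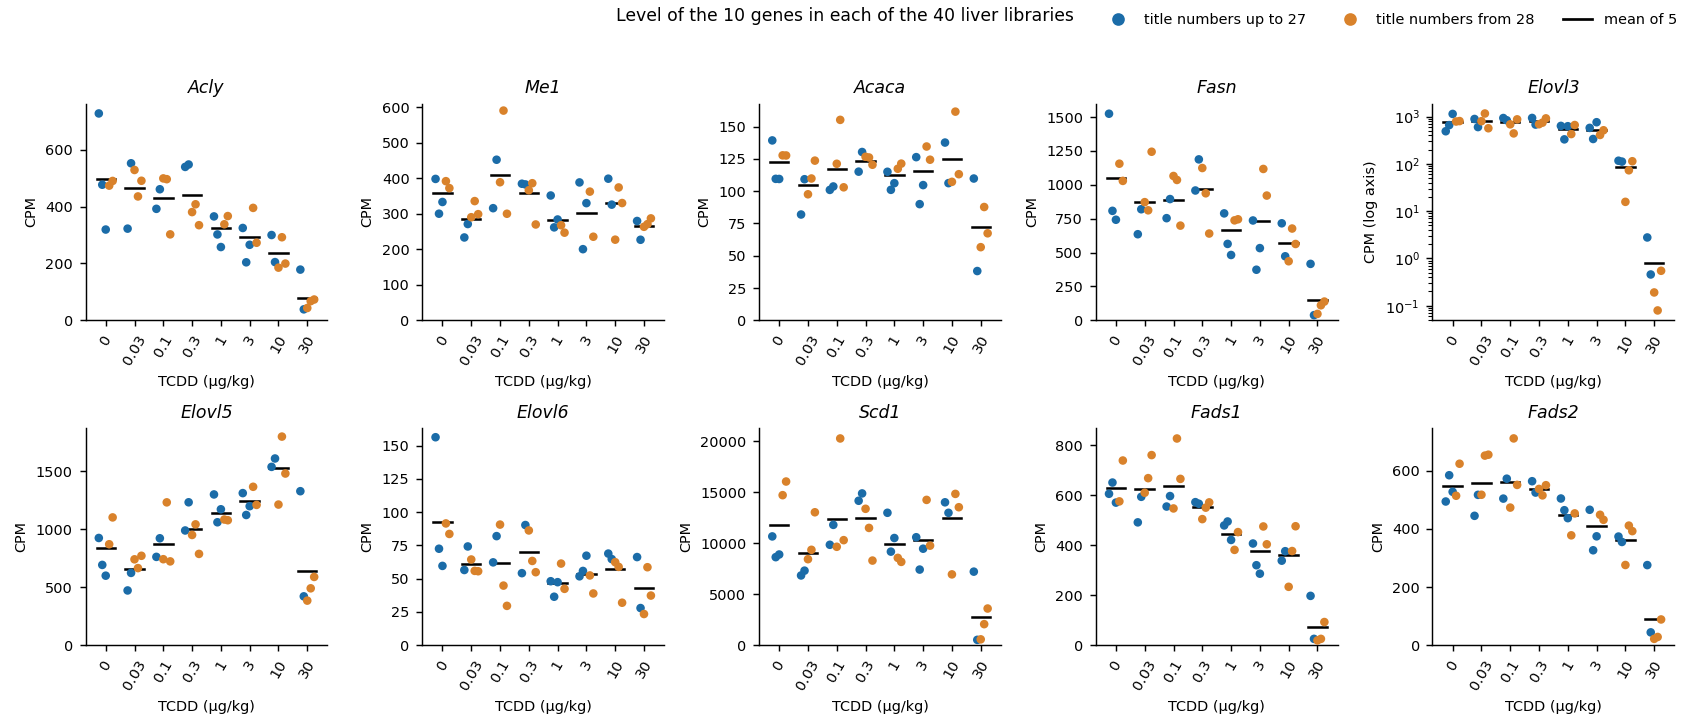
CPM (y axis; logarithmic for Elovl3, from 0 for the others) of each of the 10 genes in each library against TCDD dose (x axis, µg/kg, 0 is vehicle), with points colored by run of title numbers and a bar at the mean of 5 mice. Most genes were lowest at 30 µg/kg, Elovl5 peaked at 10 µg/kg (1214 to 1801 CPM), and replicate 1 at 30 µg/kg was the highest of its group for 9 of the 10 genes.

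Replicate 1 at 30 µg/kg stood apart from the other mice of its dose. It had the highest level of its group for 9 of the 10 genes, and the 10 genes summed to 10054 CPM in it against 1367, 1415, 3187 and 4954 CPM in the other mice. Cyp1a1 in this mouse was at 6230 CPM, within the range of the others (4750 to 6376 CPM). The log2 fold change of Cyp1a1 from vehicle was 11.80 at 1 and 11.75 at 30 µg/kg, so its level does not tell these doses apart. Hepatocyte markers in this mouse summed to 58025 CPM, above the 27384 to 46065 CPM of the others. Its macrophage markers (426 CPM) were below the others (505 to 987 CPM), as were its stellate cell and fibroblast markers (563 against 1023 to 1233 CPM). Without it the same 8 genes were called, and Elovl5 as well. For the 10 genes and the other genes named below, fold changes between vehicle and 30 µg/kg that moved by over 1.5-fold without this mouse are given both ways. Group means, steps between doses, ratios and cell type markers at 30 µg/kg include it. So do values within the first run of title numbers, which held replicates 1 and 2 of that dose.

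Promoter sequence is shown for Fasn, Acly and Fads2, which were lower together at 30 µg/kg, and for Elovl5, which was higher at 10 µg/kg. Each is the 250 bases before the RefSeq start site (build GRCm38.p6), read 5′ to 3′ on the gene's strand. Capitals mark matches, on either strand, to the AhR core motif GCGTG, the CCAAT box (searched by the letters of its name), the GC box GGGCGG and the E-box CACGTG. The windows lie on chr11:120824548-120824797 (minus strand, Fasn), chr11:100528001-100528250 (minus strand, Acly), chr19:10101504-10101753 (minus strand, Fads2) and chr9:77917115-77917364 (plus strand, Elovl5).
Fasn: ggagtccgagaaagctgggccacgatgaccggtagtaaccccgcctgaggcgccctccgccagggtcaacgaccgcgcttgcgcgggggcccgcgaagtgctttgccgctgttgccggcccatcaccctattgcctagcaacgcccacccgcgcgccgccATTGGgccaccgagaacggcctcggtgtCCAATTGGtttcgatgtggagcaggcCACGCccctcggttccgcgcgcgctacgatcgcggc
Acly: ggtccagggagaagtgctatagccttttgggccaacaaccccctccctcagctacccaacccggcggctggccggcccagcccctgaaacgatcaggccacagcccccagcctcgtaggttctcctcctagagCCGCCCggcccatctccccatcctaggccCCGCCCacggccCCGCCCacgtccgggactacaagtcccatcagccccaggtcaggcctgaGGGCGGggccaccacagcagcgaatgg
Fads2: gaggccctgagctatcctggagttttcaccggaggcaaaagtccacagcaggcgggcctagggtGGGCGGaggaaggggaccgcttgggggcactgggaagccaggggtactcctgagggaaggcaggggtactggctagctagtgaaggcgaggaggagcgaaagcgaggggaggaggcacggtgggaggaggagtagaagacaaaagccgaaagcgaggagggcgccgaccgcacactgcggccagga
Elovl5: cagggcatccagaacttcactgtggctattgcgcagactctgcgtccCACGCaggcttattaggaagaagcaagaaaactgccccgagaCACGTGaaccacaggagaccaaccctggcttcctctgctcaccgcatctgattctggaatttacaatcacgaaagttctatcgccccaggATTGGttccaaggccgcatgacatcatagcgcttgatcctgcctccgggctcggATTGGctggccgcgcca

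The Fasn window held 3 CCAAT matches, of which those at 62 to 58 and 59 to 55 bases before the start overlap, and 1 AhR core match at 36 to 32 bases. The Elovl5 window held 2 CCAAT matches, 1 E-box and 1 AhR core match, the last at 203 to 199 bases before the start. The Acly window held 4 GC boxes and the Fads2 window 1. Among 32851 promoter windows of the same length, 28.2% held the AhR core, 33.8% a CCAAT box, 32.7% a GC box and 6.02% an E-box. The sterol regulatory element, searched as TCACNCCAC on both strands, was in 1.05% of all windows and in 0 of the windows found for 7 of the 10 genes. Scd1, Elovl3 and Fads1 had no entry. The AhR core was found for 2 of the 7 genes with a window, near the 28.2% of all windows. They were Fasn, lower at 30 µg/kg, and Elovl5, higher at 10 µg/kg. A match is a string of letters, not a measured binding site.

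Of the genes that supply carbon and NADPH, Acly fell and Me1 was not called. Acly, ATP citrate lyase (ENSMUSG00000020917), cleaves citrate to acetyl-CoA. Its level in replicates 1 to 5 was 728, 477, 319, 474 and 490.3 CPM in vehicle, 300.0, 205, 185, 292 and 199.5 CPM at 10 µg/kg, and 178, 38.5, 43.2, 67.4 and 73.1 CPM at 30 µg/kg. Every mouse at 10 and at 30 µg/kg lay below every vehicle mouse. The log2 fold change was -1.07 (SE 0.27, adjusted p = 0.00171, edgeR) at 10 µg/kg and -2.64 (SE 0.28, adjusted p = 3.06e-10) at 30 µg/kg, a 6.21-fold lower level. Me1, the cytosolic malic enzyme that yields NADPH (ENSMUSG00000032418), was at 398, 300.3, 333, 392 and 372 CPM in vehicle and 279.7, 227, 263, 271 and 287 CPM at 30 µg/kg. The groups did not overlap, but the difference was small, 1.35-fold lower (log2 fold change -0.44, SE 0.17, adjusted p = 0.0254), and Me1 was not called. With libraries scaled to total counts alone, which moved the median log2 fold change of all genes at 30 µg/kg to 0.52, Me1 was at 0.05 and its direction turned.

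In de novo synthesis, Fasn fell and Acaca fell less. Acaca encodes acetyl-CoA carboxylase 1, which makes malonyl-CoA (ENSMUSG00000020532), and was at 139, 109.5, 109, 128 and 128 CPM in vehicle and 109.8, 38.1, 56.6, 87.7 and 67.4 CPM at 30 µg/kg. Replicate 1 at 30 µg/kg lay inside the vehicle range and the other 4 below it. The log2 fold change was -0.77 (SE 0.17, adjusted p = 0.000192, edgeR) at 30 µg/kg and 0.03 (SE 0.17, adjusted p = 0.922) at 10 µg/kg. On total counts alone it was -0.30 (adjusted p = 0.0871) at 30 µg/kg, and the call was lost. Fasn, fatty acid synthase (ENSMUSG00000025153), was at 1525, 808, 742, 1156 and 1029 CPM in vehicle, 716, 472, 436, 677 and 563 CPM at 10 µg/kg, and 416, 37.8, 47.2, 111 and 138 CPM at 30 µg/kg. All mice at both doses lay below all vehicle mice. The level at 30 µg/kg was 7.01-fold lower (log2 fold change -2.81, SE 0.39, adjusted p = 8.87e-08), and 12.6-fold lower (-3.66) without replicate 1. At 10 µg/kg the log2 fold change of -0.88 (SE 0.36, adjusted p = 0.0621) did not pass the threshold, and Fasn was called there when vehicle and that dose were fitted alone (-0.86), with title run and order as covariates (-0.94) and within the second run (-0.97).

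Among the elongases, Elovl3 had the largest fall of the 10 genes at 10 and at 30 µg/kg. Elovl3 lengthens saturated and monounsaturated very long-chain fatty acids (ENSMUSG00000038754). It was at 490.4, 661, 1139.9, 788 and 805 CPM in vehicle, 117, 112, 15.7, 73.2 and 114 CPM at 10 µg/kg, and 2.78, 0.458, 0.191, 0.0794 and 0.548 CPM at 30 µg/kg. The last values rest on 60, 11, 5, 2 and 13 counts, and a level of 3 counts corresponds to 0.143 to 0.194 CPM across the 40 libraries. The groups were separate at each of these doses, and the highest mouse at 30 µg/kg lay below the lowest at 10 µg/kg. Relative to vehicle, the level was 9.00-fold lower at 10 µg/kg (log2 fold change -3.17, SE 0.41, adjusted p = 1.60e-07, edgeR) and 991-fold lower at 30 µg/kg (-9.95, SE 0.59, adjusted p = 8.83e-17). The size at 30 µg/kg rests on these few counts: the log2 fold change was -11.24 without replicate 1, -8.91 and -11.53 within the first and second runs of title numbers, and -8.60 in limma on the deposited log2 table. At 3 µg/kg the mice ranged from 336 to 761 CPM, and the log2 fold change of -0.58 (SE 0.38, adjusted p = 0.391) was not called.

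Elovl5 and Elovl6 did not follow this course. Elovl5, the elongase of polyunsaturated fatty acids (ENSMUSG00000032349), was at 925, 692, 599, 871 and 1102 CPM in vehicle, 1539, 1611, 1214, 1801 and 1482 CPM at 10 µg/kg, and 1329, 421, 384, 489.9 and 588 CPM at 30 µg/kg. All mice at 10 µg/kg lay above all vehicle mice, as did all mice at 3 µg/kg. Replicate 1 at 30 µg/kg lay above the vehicle range, replicates 2 to 5 lay below it, and no mouse fell within it. The group means were 838 ± 198 CPM in vehicle, 654 ± 118 at 0.03, 876 ± 214 at 0.1, 1001 ± 161.2 at 0.3, 1139 ± 100.2 at 1, 1243 ± 96.8 at 3, 1529 ± 214 at 10 and 642 ± 392 CPM at 30 µg/kg. Neighboring doses were not called different from 0.03 up to 10 µg/kg, and 30 µg/kg was 2.38-fold below 10 µg/kg (log2 fold change -1.25, SE 0.22, adjusted p = 2.45e-05, edgeR). Against vehicle, Elovl5 was 1.83-fold higher at 10 µg/kg (0.87, SE 0.22, adjusted p = 0.00188), at 1.08 (adjusted p = 0.0309) within the first run of title numbers and 0.60 (adjusted p = 0.0984) within the second. At 30 µg/kg the log2 fold change was -0.38 (SE 0.22, adjusted p = 0.131) with all mice and -0.83 (adjusted p = 4.48e-05), a call, without replicate 1. Within the first run, which held replicates 1 and 2 at 30 µg/kg, it was 0.23 (adjusted p = 0.616), and within the second -1.05 (adjusted p = 0.0013). The direction was thus not the same in the 2 runs, but replicate 2 lay below vehicle like the mice of the second run. A difference between runs cannot be told apart from replicate 1.

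Elovl6, which lengthens palmitate to stearate (ENSMUSG00000041220), was at 156, 72.5, 59.5, 91.5 and 83.6 CPM in vehicle, 48.0, 36.4, 47.3, 61.3 and 42.3 CPM at 1 µg/kg, and 66.2, 27.8, 23.3, 58.6 and 37.2 CPM at 30 µg/kg. Vehicle replicate 1 was the highest of these 15 values, and the groups overlapped. The log2 fold change was -0.98 (SE 0.27, adjusted p = 0.0282, edgeR) at 1, -0.80 (SE 0.27, adjusted p = 0.0475) at 3, -0.69 (SE 0.27, adjusted p = 0.0428) at 10 and -1.12 (SE 0.27, adjusted p = 0.000516) at 30 µg/kg. The call at 30 µg/kg was kept without any 1 mouse, and the others were not. On total counts alone the adjusted p was 0.0563, 0.094 and 0.199 at 1, 3 and 10 µg/kg, and none of these was called. Without vehicle replicate 1, the log2 fold changes at 1, 3 and 10 µg/kg were -0.71, -0.53 and -0.42 and none was called. The call at 1 µg/kg was also lost without vehicle replicate 4 or replicates 1, 2, 3 or 5 of that dose, that at 3 µg/kg without vehicle replicates 4 or 5 or replicates 1, 2, 4 or 5 of that dose, and that at 10 µg/kg without vehicle replicate 4 or replicates 3, 4 or 5 of that dose.

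The desaturases were all lower at 30 µg/kg. Scd1, stearoyl-CoA desaturase, makes oleate and palmitoleate (ENSMUSG00000037071). It was at 10655, 8620.0, 8881, 14701 and 16039 CPM in vehicle, 14001, 12969, 6931, 14826 and 13518 CPM at 10 µg/kg, and 7199, 508, 557, 2049 and 3581 CPM at 30 µg/kg. The mice at 10 µg/kg spread over the vehicle range with 1 below it, and all mice at 30 µg/kg lay below it. The log2 fold change was 0.08 (SE 0.39, adjusted p = 0.903, edgeR) at 10 µg/kg and -2.08 (SE 0.41, adjusted p = 3.85e-05) at 30 µg/kg, where it was -2.82 without replicate 1. Within the first run of title numbers it was -1.30 (adjusted p = 0.106) and within the second -2.92 (adjusted p = 0.000112).

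Fads1 and Fads2, the delta-5 and delta-6 desaturases that make long polyunsaturated fatty acids, separated from vehicle at lower doses. Fads1 (ENSMUSG00000010663) was at 606, 651, 571, 576 and 739.8 CPM in vehicle, 338, 376, 233, 377 and 476 CPM at 10 µg/kg, and 197, 24.8, 18.6, 24.7 and 92.2 CPM at 30 µg/kg. Fads2 (ENSMUSG00000024665) was at 495, 585, 528, 515 and 625 CPM in vehicle, 374, 355, 276, 412 and 393 CPM at 10 µg/kg, and 276, 43.7, 21.3, 27.8 and 88.2 CPM at 30 µg/kg. All 5 mice lay below all vehicle mice from 1 µg/kg upward for Fads1 and from 3 µg/kg upward for Fads2. Among all tested genes, 3.13% lay below vehicle in this way at 1 µg/kg and 4.49% at 3 µg/kg. Before 30 µg/kg neither was called, with log2 fold changes at 10 µg/kg of -0.80 (SE 0.34, adjusted p = 0.0678, edgeR) for Fads1 and -0.60 (SE 0.34, adjusted p = 0.18) for Fads2, and both were called when vehicle and 10 µg/kg were fitted alone. Fads1 at 30 µg/kg was 8.81-fold lower (-3.14, SE 0.37, adjusted p = 2.86e-09) and Fads2 6.02-fold lower (-2.59, SE 0.36, adjusted p = 9.64e-08). Without replicate 1 they were 15.7-fold (-3.97) and 12.2-fold (-3.60) lower. With vehicle and 30 µg/kg fitted alone, adjusted p was 0.000802 for Fads1 and 0.00294 for Fads2 (edgeR).

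**Figure D2:**
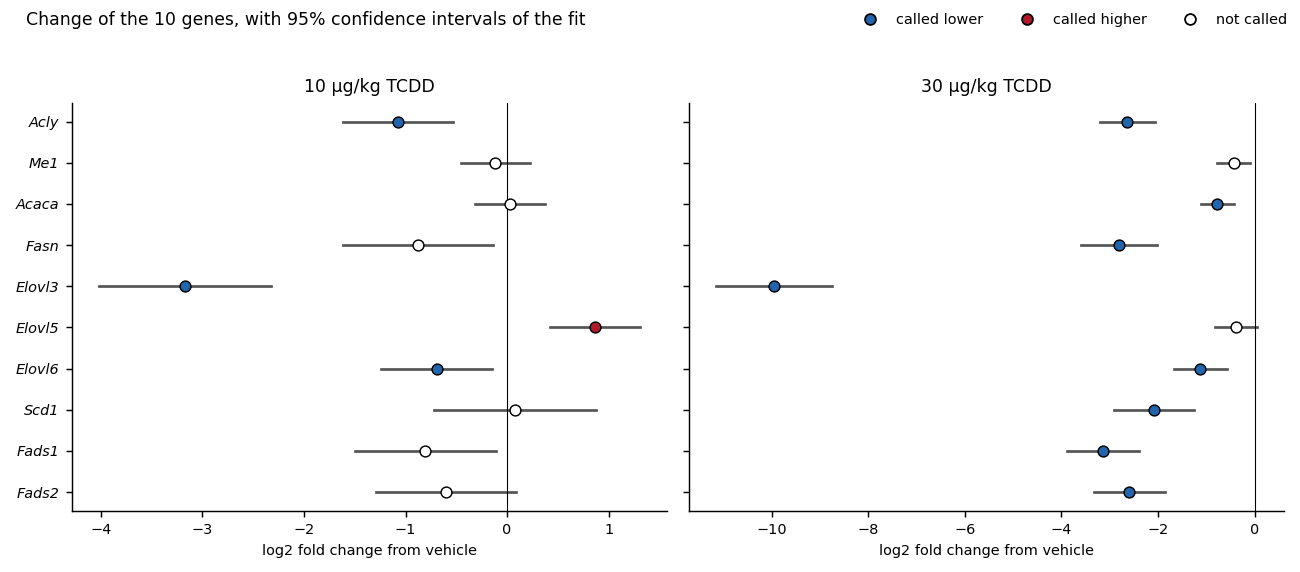
Log2 fold change from vehicle (x axis) of the 10 genes (rows) at 10 and 30 µg/kg TCDD, with bars for the 95% confidence interval of the fit and filled points for called genes. At 10 µg/kg 3 genes were called lower and Elovl5 higher; at 30 µg/kg 8 were called lower, and Me1 (-0.44) and Elovl5 (-0.38) were not called.

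Separation from vehicle was also counted without a model. At 30 µg/kg 7 of the 10 genes had all 5 mice below all vehicle mice, when 17.9% of all tested genes did. The corresponding counts were 5 at 10 µg/kg (10.1% of all genes), 2 at 3 µg/kg (4.49%), 1 at 1 µg/kg (3.13%) and 0 at the 3 lower doses (0.26% to 0.969%). Elovl5 alone had all mice above vehicle, at 3 µg/kg (5.23% of all genes) and 10 µg/kg (12.9%).

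The steps between neighboring doses showed where the levels moved. From 10 to 30 µg/kg 8 of the 10 genes were called, all lower, against 21.1% of all genes in either direction and 10.6% called lower: Fads1 (-2.33), Scd1 (-2.16), Fads2 (-1.99), Fasn (-1.93), Acly (-1.56), Elovl5 (-1.25), Acaca (-0.80) and Elovl3 (-6.78). The 2 not called were Me1 (-0.32, adjusted p = 0.147, edgeR) and Elovl6 (-0.43, adjusted p = 0.234). From 3 to 10 µg/kg only Elovl3 was called (-2.59, SE 0.41, adjusted p = 3.25e-05), against 6.77% of all genes. No gene of the 10 was called at the steps from 0.03 to 0.1, 0.1 to 0.3, 0.3 to 1 and 1 to 3 µg/kg in edgeR, where 0.039%, 0.0455%, 0.241% and 0.0585% of all genes were, and 1, 0, 2 and 0 of the 10 had an unadjusted p under 0.05. A slope was tested over the ordered doses, with vehicle as step 0 and 30 µg/kg as step 7. It passed an adjusted p of 0.05 in 7 of the 10 genes, against 57.7% of all genes (26.1% downward, 31.5% upward). It was downward in Elovl3, Fads1, Acly, Fasn, Fads2 and Elovl6 and upward in Elovl5 (0.08 per step, SE 0.04, adjusted p = 0.043), although Elovl5 at 30 µg/kg was below 10 µg/kg. With dose in µg/kg on a linear scale in place of the steps, 9 slopes passed, all downward, and that of Elovl5 turned to -0.010 per µg/kg (adjusted p = 0.332). The share of all genes passing on that scale was not counted. Over the steps, Me1, Acaca and Scd1 did not pass, with adjusted p of 0.0665, 0.103 and 0.109.

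Levels between genes were compared per kilobase of exon length. In vehicle, Scd1 was highest at 2408 ± 696 CPM per kb, followed by Elovl3 (393 ± 121), Elovl5 (238 ± 56.2), Fads2 (167 ± 16.4), Fads1 (131 ± 14.5), Fasn (96.1 ± 28.5), Acly (94.3 ± 27.7), Me1 (93.3 ± 10.8), Elovl6 (14.4 ± 5.84) and Acaca (7.19 ± 0.760) CPM per kb. Fasn, Acly and Me1 differed by less than their SD. By group mean at 30 µg/kg, Scd1 was still highest at 568 ± 567 CPM per kb, with Elovl5 at 182 ± 111 and Me1 at 69.0 ± 6.09. Elovl3 had moved from the second place to the last at 0.410 ± 0.565 CPM per kb. By group mean, Scd1 made up most of the summed level of the 10 genes. That sum was 16696 ± 3777 CPM in vehicle, 16110 ± 3705 CPM at 10 µg/kg and 4195 ± 3593 CPM at 30 µg/kg. In replicate 2 at 30 µg/kg, Scd1 was 508 of 1367 CPM. The sums at 30 µg/kg (1367 to 10054 CPM) lay below the vehicle sums (12977 to 21415 CPM), and those at 10 µg/kg (9687 to 19053 CPM) overlapped them.

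Ratios of gene pairs within a library, with 0.5 CPM added to each gene, differed from vehicle in 9 of 14 tests at an adjusted p under 0.05 (exact permutation tests, 2-sided, 5 mice against 5, adjusted over 14; the smallest p possible is 0.00794). The Elovl5/Elovl6 ratio, between the polyunsaturated and the palmitate elongase, was 2.92 times the vehicle value at 10 µg/kg (log2 difference 1.55, exact adjusted p = 0.0139) and 1.55 times at 30 µg/kg (0.63, exact adjusted p = 0.0833). The Elovl3/Elovl6 ratio was 6.69 times lower at 10 µg/kg (-2.74, exact adjusted p = 0.0247) and 320 times lower at 30 µg/kg (-8.32, exact adjusted p = 0.0139). The latter size depends on the added value, since Elovl3 was near or below 0.5 CPM in 4 of those mice: it was -9.23 with 0.1 CPM added and -7.02 with 2 CPM. Scd1 rose relative to Fasn at 10 µg/kg (log2 difference 0.93, exact adjusted p = 0.0139, all 5 mice above all vehicle mice). At 30 µg/kg that difference was 0.57 (exact adjusted p = 0.0833). Acaca and Me1 rose relative to Fasn at both doses: Acaca/Fasn by 0.87 and 2.45, and Me1/Fasn by 0.72 and 2.87 on the log2 scale, each at an exact adjusted p of 0.0139. The Acly/Fasn ratio differed by -0.20 at 10 and 0.49 at 30 µg/kg, both at an exact adjusted p of 0.103. Fads1/Fads2 was 1.42 times lower at 30 µg/kg (-0.51, exact adjusted p = 0.0139) and at -0.22 (exact adjusted p = 0.0833) at 10 µg/kg.

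**Figure D3:**
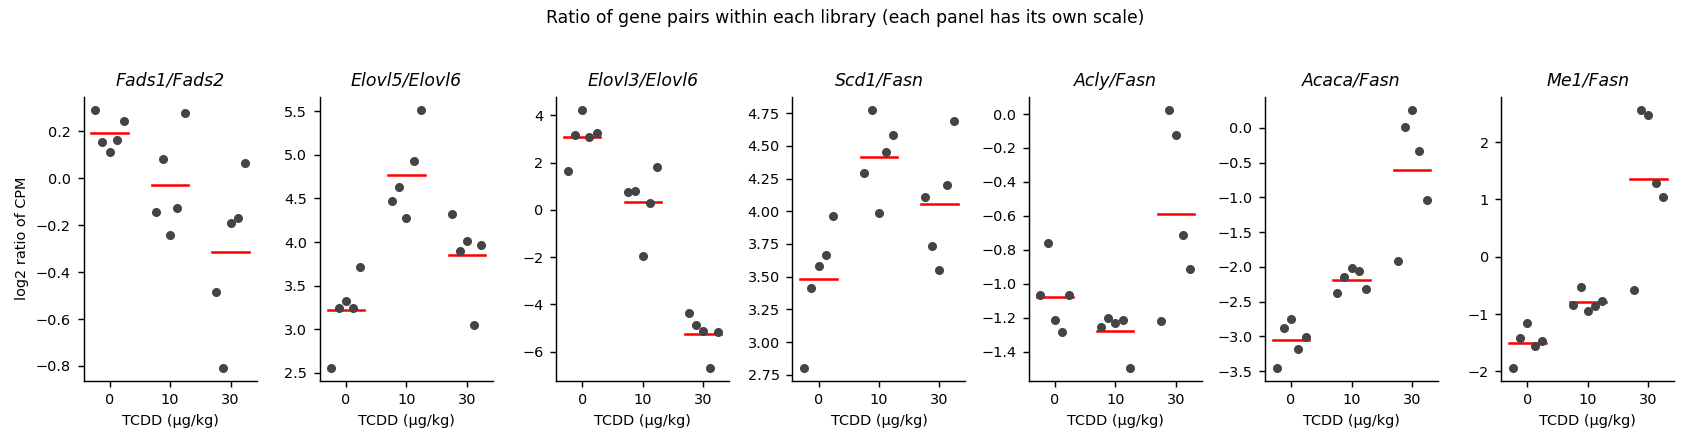
Log2 ratio of CPM (y axis, a separate scale in each panel) for 7 gene pairs in each of 5 libraries in vehicle and at 10 and 30 µg/kg TCDD (x axis), with a red bar at the mean. Acaca/Fasn and Me1/Fasn were above all vehicle libraries in all 5 mice at both doses, and Elovl5/Elovl6 was highest at 10 µg/kg.

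The genes were then compared mouse by mouse, as deviations of log2 CPM from the mean of their dose. Of 45 pairs, 30 had an adjusted p under 0.05 for Pearson's r by permutation within doses (20000 permutations, adjusted over 45), all positive, with a median r of 0.56 over the 45 pairs. The strongest pair was Fads1 and Fads2 (r = 0.96, Spearman's rho = 0.91, permutation p = 5e-05 for both, the smallest possible, adjusted p = 0.00017; r = 0.90 without the 2 mice farthest from the median), followed by Acly and Fasn (r = 0.90, rho = 0.82, adjusted p = 0.00017 for both; r = 0.83 without those 2 mice). Elovl6 and Elovl3 had the weakest r (0.01). The mice at 30 µg/kg spread most. Without them 28 pairs passed, 27 positive, with Fads1 and Fads2 at r = 0.86 and a median r of 0.50, and the negative pair was Elovl6 and Fads1 (r = -0.47, rho = -0.56, adjusted p = 0.022 and 0.0022 by permutation, 35 mice; r = -0.40 without the 2 farthest). Within dose and title run together, 25 pairs passed.

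**Figure D4:**
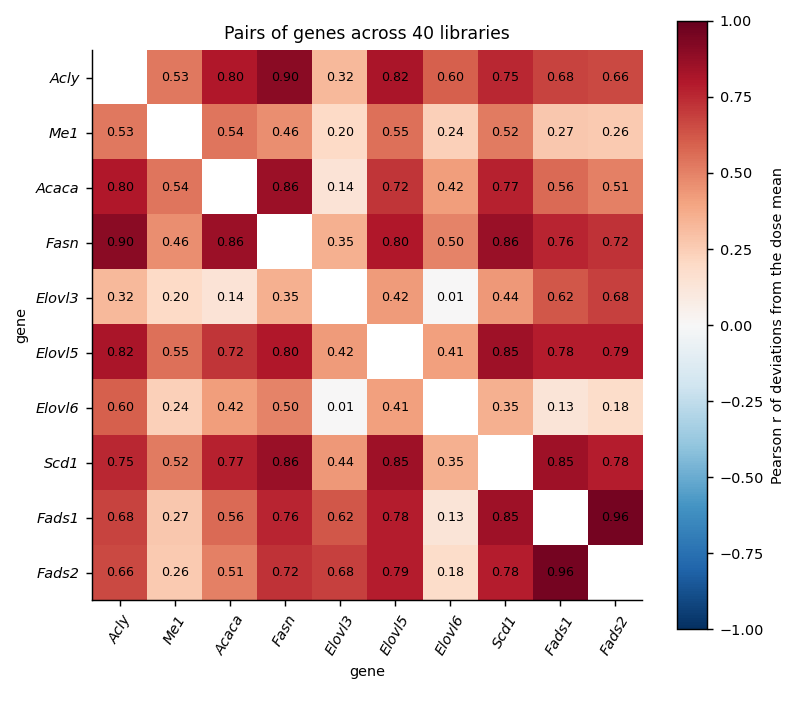
Pearson's r (color and printed value) between each pair of the 10 genes, computed from deviations of log2 CPM from the dose mean across 40 libraries. Fads1 and Fads2 had the highest value (0.96), and Elovl3 and Elovl6 the lowest (0.01).

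Across all 40 libraries with dose left in, the genes most like each member by Pearson's r of log2 CPM were as follows, as a description over libraries that share the doses. Fasn was nearest to Insig1 (r = 0.97), an endoplasmic reticulum retention factor for SREBP, Acly to the liver glycogen phosphorylase Pygl (0.97), and Elovl3 to the peroxisomal glycolate oxidase Hao1 (0.99). Elovl5 was nearest to the retinol dehydrogenase gene Rdh16 (0.92) and the beta-oxidation enzyme Hadh (0.89). Fads1 was nearest to Qprt (0.99) and Fads2 to Cyp2d26 (0.98). Acaca and Scd1 shared Pm20d1 as their nearest gene (0.88 and 0.95). Elovl6 (Utp14b, 0.81) and Me1 (Tmem135, 0.64) had the least similar partners.

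Of 34 further genes of the pathway, 30 passed the filter, and 19 of these were called at 30 µg/kg, 7 higher and 12 lower, with a median log2 fold change of -0.31, when 42.1% of all tested genes were called, 23.2% higher and 18.9% lower. On total counts alone 10 were called higher and 8 lower, with a median of 0.17. Under that scaling 41.6% of all tested genes were called higher and 10.1% lower, and their median was 0.52. Me3, Elovl4, Scd3 and Scd4 did not pass. Lower were Acss2, which makes acetyl-CoA from acetate (5.88-fold; log2 fold change -2.56, SE 0.30), Mid1ip1 (-2.46, SE 0.31) and Thrsp (-2.34, SE 0.48), which modulate acetyl-CoA carboxylase and lipogenesis, the polyunsaturated fatty acid elongase Elovl2 (-2.44, SE 0.14), the cytochrome b5 reductase Cyb5r3 (-1.77, SE 0.16) and the mitochondrial-outer-membrane carboxylase Acacb (-1.38, SE 0.20). Without replicate 1, Acss2 was at -3.20 and Thrsp at -3.21. With all mice, adjusted p for these 6 genes ranged from 4.04e-17 (Elovl2) to 7.69e-05 (Thrsp) in edgeR. Elovl2 was at 635 ± 38.1 CPM in vehicle, 240.0 ± 31.2 at 10 µg/kg and 117 ± 32.5 CPM at 30 µg/kg, and was the only gene of this list called lower at 1 µg/kg (-0.61, adjusted p = 0.004) and at 3 µg/kg (-0.92, adjusted p = 5.29e-06).

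The genes of this list that rose at 30 µg/kg included the pentose phosphate pathway enzymes G6pdx (3.32-fold; log2 fold change 1.73, SE 0.31) and Pgd (4.22-fold; 2.08, SE 0.16), which supply NADPH, and the mitochondrial malic enzyme Me2 (1.81, SE 0.24). Scd2, a desaturase paralog (2.44, SE 0.27), Hacd4, a 3-hydroxyacyl-CoA dehydratase (2.50, SE 0.34), and the elongase Elovl7 (5.78, SE 0.78) rose as well. Several of these were low: Elovl7 went from 0.145 ± 0.120 to 8.55 ± 6.49 CPM with at most 5 counts in a vehicle library, Hacd4 from 1.31 ± 0.375 to 7.42 ± 2.67 CPM, Me2 from 2.30 ± 0.465 to 8.10 ± 2.39 CPM, and Scd2 from 6.46 ± 1.14 to 35.2 ± 12.4 CPM, against 11779 CPM for Scd1 in vehicle. G6pdx at 30 µg/kg (9.40 to 79.6 CPM) overlapped vehicle (6.99 to 15.4 CPM), and its log2 fold change was 1.10 without replicate 5. Cyb5a, the cytochrome b5 that donates electrons to the desaturases, was chosen after its values were seen: it was the only gene of the list called higher at 0.3, 1 and 3 µg/kg (0.76, 0.83 and 0.82), was called at 10 µg/kg (0.65, adjusted p = 9.62e-07), and at 30 µg/kg stood at 0.28 (adjusted p = 0.0118) and was not called.

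Of 20 regulators tested, 10 were called at 30 µg/kg, 8 lower and 2 higher, with a median log2 fold change of -0.39, against the same 42.1% of all genes. On total counts alone 5 were higher and 5 lower, with a median of 0.095, when 41.6% of all tested genes were called higher and 10.1% lower. Under that scaling Insig2 (-0.52), Nr1h3 (-0.29) and Usf2 (-0.096) were no longer called. In the SREBP arm, Srebf1, which encodes SREBP-1, was at 387 ± 70.2 CPM in vehicle, 185 ± 39.5 at 10 µg/kg and 93.7 ± 56.6 CPM at 30 µg/kg (log2 fold change -1.06, adjusted p = 0.0021, and -2.05, adjusted p = 6.17e-08, edgeR). Its escort Scap (-1.40, SE 0.13) and the retention factors Insig1 (-2.71, SE 0.39; -3.86 without replicate 1) and Insig2 (-1.04, SE 0.19) were also lower at 30 µg/kg. Insig2 was already called at 1 µg/kg (-0.66, adjusted p = 0.0404) and at 3 µg/kg (-0.95, adjusted p = 0.000895), and at 10 µg/kg was at 146 ± 12.1 CPM against 334 ± 7.22 CPM in vehicle. The proteases that release SREBP went apart: Mbtps2 was higher (0.72, SE 0.20) and Mbtps1 was not called (-0.31, SE 0.09).

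Mlxipl, which encodes ChREBP, was at 561 ± 108 CPM in vehicle, 206 ± 23.0 at 10 µg/kg and 96.5 ± 21.7 CPM at 30 µg/kg, and was called from 3 µg/kg upward (-0.74, -1.45 and -2.54 at 3, 10 and 30 µg/kg, with adjusted p of 0.00211, 1.31e-08 and 5.1e-15 in edgeR). Its partner Mlx was not called (-0.42, SE 0.13). Among nuclear receptors, the LXR gene Nr1h3 (-0.78, SE 0.11) and the thyroid hormone receptor gene Thrb (-1.71, SE 0.20) were lower, and Nr1h2 (-0.35, SE 0.12) and Rxra (-0.22, SE 0.14) were not called. The upstream factor Usf2 was called lower at a fold change of 1.502, at the threshold (-0.59, SE 0.10), and its relative Usf1 was not (-0.50, SE 0.13). The coactivator gene Ppargc1b was not called (0.17, SE 0.28). Of the AMP-activated kinase subunits, Prkab2 was higher (0.84, SE 0.22), and Prkaa1 (0.33, SE 0.16), Prkag1 (0.23, SE 0.20), Prkab1 (-0.33, SE 0.14) and Prkaa2 (-0.36, SE 0.18) were not called. On total counts alone, Mbtps1, Mlx, Nr1h2, Rxra, Prkaa2 and Prkab1 turned to values above 0 at 30 µg/kg.

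**Figure D5:**
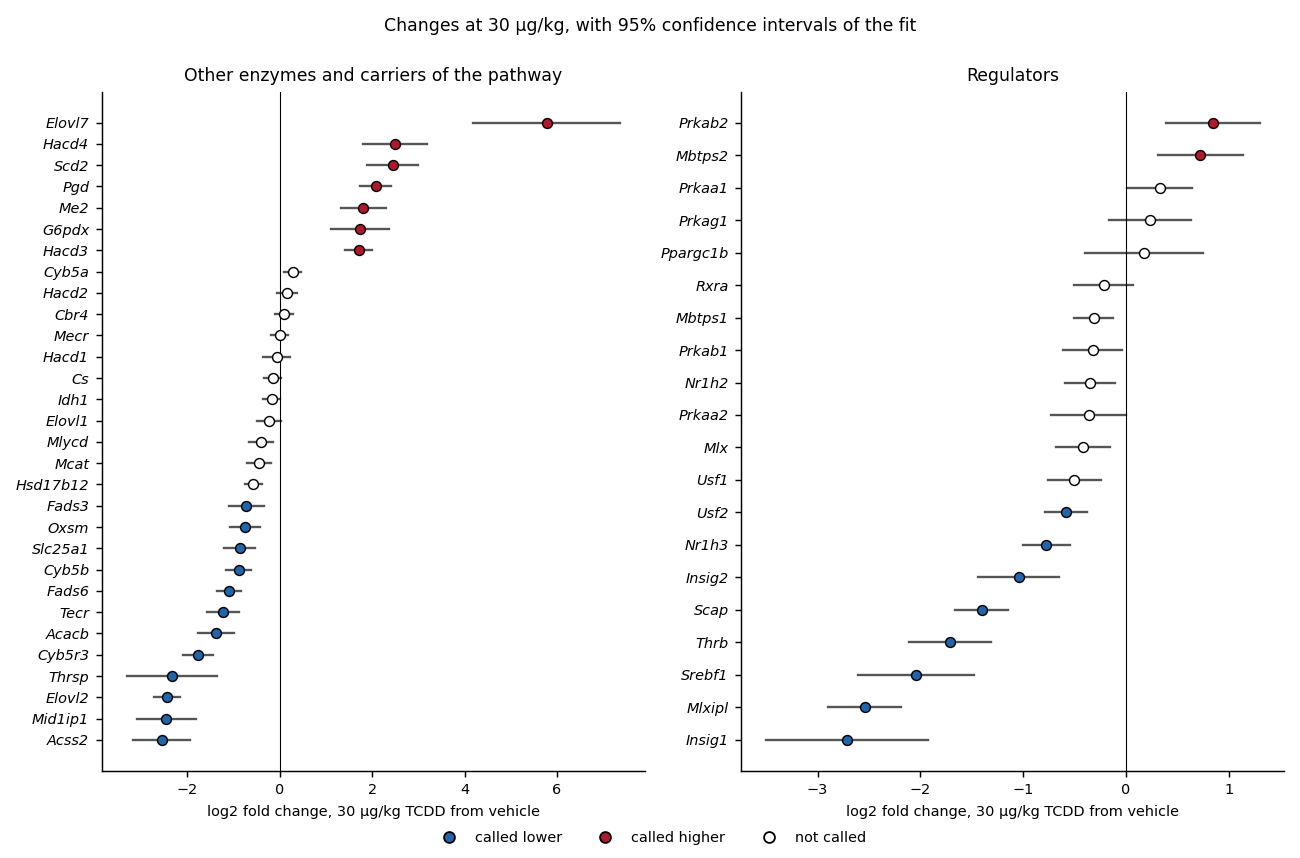
Log2 fold change from vehicle at 30 µg/kg TCDD (x axis) of 30 further pathway genes and 20 regulators (rows), with bars for the 95% confidence interval of the fit and filled points for called genes. In the pathway 12 genes were called lower and 7 higher, from Acss2 (-2.56) to Elovl7 (5.78); among the regulators Insig1 (-2.71) was lowest and Prkab2 (0.84) highest.

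The markers of liver cell types moved with dose. The 5 hepatocyte markers summed to 105040 ± 8261 CPM in vehicle, 79995 ± 13866 at 10 µg/kg and 39491 ± 12792 CPM at 30 µg/kg. All 5 were called lower at 30 µg/kg, from Alb (-1.27) to Apoa1 (-3.20), with a median log2 fold change of -2.06 beside the -2.34 of the 10 fatty acid genes, and 4 were at 10 µg/kg (median -0.72). From vehicle to 30 µg/kg, 5 macrophage markers went from 155 ± 21.0 to 677 ± 222 CPM, 5 stellate cell and fibroblast markers from 184 ± 33.9 to 991 ± 253 CPM, and 4 endothelial markers from 134 ± 16.8 to 206 ± 23.0 CPM. The 4 lymphocyte markers went from 17.9 ± 3.84 to 41.8 ± 4.71 CPM. Most of that rise was in Ptprc (5.29 to 26.4 CPM), while Ighm stayed level (11.3 and 11.8 CPM). Cd79a (1.08 to 2.73 CPM) and Cd3e (0.288 to 0.884 CPM) were low at both ends, so the sum mainly follows Ptprc. The 4 cholangiocyte markers went from 15.6 ± 2.05 to 34.0 ± 34.6 CPM, with 1 mouse at 95.8 CPM. They did not move together: 3 were called higher and 1 lower, Sox9, which went from 10.6 to 5.51 CPM. No marker of these lists was at 0 in a whole group, and their part in the changes of the fatty acid genes, including the rises of low genes such as Elovl7, Hacd4 and Scd2, was not tested. The 5 adipocyte markers summed to at most 0.337 CPM in any mouse at 30 µg/kg, with 2 of the 5 at 0 in that group, and to at most 2.35 CPM at 10 µg/kg. They exceeded 5 CPM in 5 libraries: vehicle replicate 2, replicates 3 and 4 at 0.1 µg/kg and replicates 1 and 3 at 1 µg/kg. Without these libraries 4 of the 10 genes were again called at 10 µg/kg and 8 at 30 µg/kg, and the call of Elovl6 at 1 µg/kg was lost (log2 fold change -1.08).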

How the data were processed

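RNA-Seq counts per gene of 40 mouse livers were analysed. Per the labels, the authors trimmed reads with Trimmomatic 0.39, checked them with FastQC 0.11.7 and aligned them with STAR 2.7.3a. GRCm39 and mm10 are both named as builds without a role, and the annotation is not given in the sources used here. The deposited raw counts have an unstranded column and a column for each strand setting, and the first strand setting held 50.0% to 50.3% of the stranded counts, so the unstranded column was used. Overlapping and antisense genes therefore share reads, and reads mapped to several places (5.24% to 7.43%) were not counted, which lowers genes with near-identical copies. Rows that name no gene entered neither library sizes nor tests, and 71.3% to 80.8% of the reads of a library lay in genes. A deposited log2 table of 23120 genes, which matched the blind variance-stabilizing transformation of DESeq2 on the counts of those genes within 5.03e-10, served as an alternative.

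Symbols came from GENCODE M21 (52083 of 55359 identifiers matched), as did exon lengths, and promoter windows from RefSeq (GRCm38.p6). The counts were filtered by filterByExpr of edgeR 4.0.16 (R 4.3.3; minimum count 10, total 15), TMM-scaled, and fitted with a quasi-likelihood model of 1 mean per dose over all 40 libraries (32 residual degrees of freedom). P-values were Benjamini-Hochberg adjusted over the 15373 genes within each comparison. SE and 95% intervals are from the fit, log2 CPM had a prior count of 2, ratios had 0.5 CPM added to each gene, and the floor was 3 counts, which covers counting error alone. The test recovered known changes in simulated counts. No replicate pair was a copy of another library (lowest chi-square per degree of freedom over 80 pairs, 11.1). The study's methods use an empirical Bayes posterior probability with the same fold threshold, and edgeR's test took its place.

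Alternatives were DESeq2 1.42.0, relative log expression or total-count scaling, other filters on low counts, vehicle with 1 dose alone, the title run as covariate, runs 1 and 2 separately, counts of the larger strand column, no fold threshold, limma 3.58.1 on the log2 table, other pseudocounts for ratios, linear dose in the trend, and leave-one-out fits. Added after the data were examined were title run with order as covariates, leaving out libraries high in adipocyte markers, and correlations without 30 µg/kg. The 10 genes and all lists were chosen with earlier results of these data known. Named were all 10 genes and all regulators, up to 6 pathway genes called in each direction at 30 µg/kg by size of change, and of the 3 genes most like each member the nearest 1 or 2.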

Additional observations from a re-analysis of the deposited data

Results flagged for a closer look

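In 5 of the 80 gene and dose groups tested, 1 mouse lay far from the other 4 by Dixon's criterion on log2 CPM. Chance flags about 1 in 20 groups, so 4 would be flagged among 80. At 10 µg/kg, replicate 3 had the lowest Elovl3 (15.7 CPM against 73.2 to 117 CPM in the others) and the lowest Scd1 (6931 CPM against 12969 to 14826 CPM). At the same dose, replicate 5 had the lowest Elovl6 (31.8 CPM against 58.8 to 68.8 CPM), and without it Elovl6 was not called there. At 0.1 µg/kg, replicate 4 had the highest Scd1 (20263 CPM against 9638 to 11788 CPM). The adipocyte markers of this library summed to 36.8 CPM, the highest of the 40 libraries, and its Me1 was at 591 CPM. At 0.3 µg/kg, replicate 5 had the lowest Me1 (269.9 CPM against 366 to 386 CPM).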

How the results depend on the processing

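Of the genes called at 30 µg/kg, leaving out each library in turn gave 8 to 9 of the 10 genes, 19 to 20 of the pathway and 9 to 11 of the regulators, with 3 to 4 of the 10 at 10 µg/kg, 0 to 2 at 3 µg/kg, 0 to 1 at 1 µg/kg and 6 to 8 trends. At 1 µg/kg the count was 0 on total counts alone, within either title run and without the libraries high in adipocyte markers, and 3 with vehicle and the dose alone. At 3 µg/kg it was 0 within either run, on the strand-specific column and in limma on the log2 table, 2 in DESeq2, and 3 with vehicle and the dose alone, and it stayed 1 with another gene on total counts alone (Elovl5, higher) and with title run and order as covariates (Acly), where Elovl6 was lost. At 10 µg/kg it was 7 with vehicle and the dose alone and 2 within run 1, and Elovl6 was lost on total counts alone, with title run as covariate, without a filter, on the strand-specific column, in limma and within either run. The cause was not tested, and the shares of all genes under these settings are not given here. At the 3 lower doses every alternative gave 0. Signs turned only for genes that were not called at that dose in the fit over all 40 libraries. In that fit Me1, Mbtps1, Mlx and Nr1h2 at 30 µg/kg still had an adjusted p under 0.05 (edgeR). On total counts alone, the log2 fold change at 30 µg/kg was 0.052 for Me1, 0.081 for Elovl5, 0.18 for Mbtps1, 0.061 for Mlx, 0.14 for Nr1h2, 0.26 for Rxra, 0.13 for Prkaa2 and 0.17 for Prkab1, and at 10 µg/kg 0.084 for Me1. Within run 1 it was 0.061 for Me1 at 10 µg/kg, and 0.23 for Elovl5 and -0.32 for Ppargc1b at 30 µg/kg, where that run held replicates 1 and 2. Within run 2 at 10 µg/kg it was -0.0055 for Acaca and -0.39 for Scd1. With title run and order as covariates these were -0.016 and -0.053, and without the libraries high in adipocyte markers -0.022 and -0.027. Leaving out each library gave -0.081 to 0.082 for Acaca and -0.014 to 0.23 for Scd1 at 10 µg/kg, and -0.090 to 0.41 for Ppargc1b at 30 µg/kg. Usf2, at the fold threshold, was lost under 11 settings. All 14 ratios kept their direction under both other pseudocounts, within each run and without each library. No paired analysis was possible because the labels give no replicate numbers that groups share.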
